A study of Mus musculus with 26 samples.

Results

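The genes described here encode the subunits of the oxidative phosphorylation system, as read in 13 mouse cell lines on Illumina MouseRef-8 bead arrays. They were chosen by symbol alone. Genes named Nduf (series a, b, c, s or v), Sdh a to d, Uqcr, Cyc1, Cox (subunits 4 to 8) or Atp5 count as members. The rule uses no measured value, but it was set with earlier results of these data known. The rule found 80 of 16590 genes with a named probe, of which 34 belong to complex I, 3 to complex II, 9 to complex III, 18 to complex IV and 16 to complex V. Each gene is given by its probe with the highest mean level. Of the 80 members 75 passed the filter, a detection p under 0.01 on at least 2 of the 26 arrays, and were tested. Ndufs1, Uqcrfs1, Uqcrq, Cox8b and Atp5k did not pass. Their line means lay between 4.19 and 4.93 on the log2 scale, where the lowest detected signal of an array was 4.81 to 5.36, and no level can be given for them.

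The lines were induced pluripotent stem cells made from germline stem cells (iPSC[GSC], 4 clones), pluripotent cells derived from germline stem cells under the label gPSC (4 clones), their germline stem cell parents (GSC[adult] and GSC[neonatal]), and OG2 embryonic stem cells (ESC). An iPSC line made from fibroblasts with a system labelled Tet-4F (iPSC[MEF]) and mouse embryonic fibroblasts (MEF) complete the set. All carry the strain label OG2, a mouse strain with an Oct4-GFP reporter. In each of the iPSC[GSC] and gPSC classes 2 clones go back to GSC labelled adult and day 40 and 2 to GSC labelled neonatal and day 10, so each origin rests on 1 parental line. ESC, iPSC[MEF] and MEF are 1 line each, with 2 arrays per line. The series title asks whether reprogramming methods lead to distinguishable pluripotent states.

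Oxidative phosphorylation transfers electrons from NADH (complex I) or succinate (complex II) through complex III to oxygen at complex IV. Complexes I, III and IV pump protons across the inner mitochondrial membrane, and complex V, the ATP synthase, uses the gradient to make ATP. All complexes except II combine subunits encoded in the nucleus with subunits encoded in mitochondrial DNA. Pluripotent cells are known for a strong use of glycolysis beside respiration, and several complex IV subunits have isoforms that are typical of testis, heart or muscle. None of the 13 mitochondrially encoded subunits had a probe named for it, so the values below concern nuclear genes only.

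The promoters of the members are shown here for 2 pairs of isoform genes whose members moved in opposite directions between GSC and pluripotent lines. Each window of 300 bases, from 250 before to 50 after the annotated start, is from RefSeq (GRCm38.p6) and is written 5′ to 3′ on the gene's strand. Capitals mark a match to 1 of 3 motifs searched on both strands: NRF1 as GCGCANGCG, ETS/GABP as CCGGAAG and YY1 as AAGATGGCG. NRF1, GABP and YY1 are transcription factors known to act at promoters of respiratory chain genes.
Cox6b2, chr7:4753045-4753344, minus strand: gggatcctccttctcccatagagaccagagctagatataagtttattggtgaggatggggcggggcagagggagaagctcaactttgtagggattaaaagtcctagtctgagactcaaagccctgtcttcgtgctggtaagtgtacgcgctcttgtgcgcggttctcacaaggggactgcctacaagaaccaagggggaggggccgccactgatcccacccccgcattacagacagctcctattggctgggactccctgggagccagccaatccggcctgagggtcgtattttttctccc
Cox6b1, chr7:30626065-30626364, minus strand: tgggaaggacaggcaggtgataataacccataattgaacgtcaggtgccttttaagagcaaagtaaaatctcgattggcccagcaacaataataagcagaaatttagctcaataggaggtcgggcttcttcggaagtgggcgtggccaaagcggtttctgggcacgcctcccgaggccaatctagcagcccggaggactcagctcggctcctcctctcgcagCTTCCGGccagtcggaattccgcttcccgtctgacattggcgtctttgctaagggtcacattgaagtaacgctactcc
Atp5g2, chr15:102670998-102671297, minus strand: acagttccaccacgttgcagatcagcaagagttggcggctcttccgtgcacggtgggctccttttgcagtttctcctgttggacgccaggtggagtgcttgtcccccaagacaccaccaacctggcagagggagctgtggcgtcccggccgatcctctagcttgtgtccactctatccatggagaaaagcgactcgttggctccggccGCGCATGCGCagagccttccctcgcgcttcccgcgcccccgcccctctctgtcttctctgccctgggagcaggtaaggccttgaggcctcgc
Atp5g1, chr11:96075582-96075881, minus strand: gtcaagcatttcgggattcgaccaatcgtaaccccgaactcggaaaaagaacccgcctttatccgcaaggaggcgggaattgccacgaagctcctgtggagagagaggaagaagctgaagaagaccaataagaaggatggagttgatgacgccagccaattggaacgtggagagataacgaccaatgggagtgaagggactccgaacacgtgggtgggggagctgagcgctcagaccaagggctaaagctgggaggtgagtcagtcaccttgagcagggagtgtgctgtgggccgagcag
The window of Cox6b1 held an ETS/GABP match read on the strand opposite to the gene, and that of Atp5g2 held overlapping NRF1 matches on both strands. No match to these letters stood in the windows of Cox6b2 and Atp5g1. Promoter windows were listed for 64 of the 80 members, and Uqcrc2, Cox4i1 and Cox8c had no entry. The NRF1 letters were found in 17 of the 64 members' promoters (26.6%), against 7.03% of the promoters of all 27025 listed genes and 15.1% of those of 7981 genes tested here. The ETS/GABP letters stood in 16 members (25%), against 9.93% of all listed and 19.5% of tested genes, and the YY1 letters in 7 members (10.9%), against 1.64% and 3.51%. By complex, 7 of 14 complex V promoters and 1 of 13 complex IV promoters held the NRF1 letters. All 7 YY1 matches were in complexes I (5 genes) and V (2 genes).

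A check of the libraries touches several results. The line means of gPSC[GSCneonatal]#2 and iPSC[MEF] differed by over 0.5 on the log2 scale for 0.580% of all genes tested, with a median absolute difference of 0.08, although their labels give different parent cells. The line means of every other pair of pluripotent lines differed that far for at least 7.93% of genes. The 2 arrays of a single line did so for 0.753% to 3.38%. That share is between single arrays, and a line mean averages 2, so it is not the same measure. No member differed by over 0.5 between this pair, and Cox6b2 was 8.05 and 8.17, Cox7a1 7.15 and 7.32. Whether these lines share cells was not tested, so the calls for gPSC are also given without gPSC[GSCneonatal]#2, while iPSC[MEF] has no other line. The summed linear level of the fibroblast markers was 7393 in gPSC[GSCadult]#2 and 2261 in gPSC[GSCneonatal]#2, against 847 at most in the other gPSC clones, and the calls for gPSC are given without gPSC[GSCadult]#2 as well. The arrays also fell into classes by background (5th percentile of intensity): 8 arrays, all replicate 1 of lines other than iPSC[GSC] and MEF, at 85.8 to 87.8, 16 arrays at 78.2 to 82.6, and both MEF arrays at 101 to 109.

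Under quantile normalisation, which gives all arrays the same distribution, the subunit genes stayed level as a group. The median over the 75 tested members of the line mean, after each gene's mean over the 13 lines was taken off, lay between -0.16 (MEF) and 0.10 (iPSC[GSCadult]#2) on the log2 scale. Over all 9826 genes tested the same median lay between -0.11 and 0.00. With each array centred on its median instead, the medians of the complexes ranged over 0.92 (complex IV) to 1.49 (complex V) across the lines, against 0.24 to 0.51 here, so the levelness of the group depended on the scaling. Complex IV had the widest spread of medians, from -0.32 in MEF to 0.19 in iPSC[GSCadult]#2, and complex V the narrowest, from -0.14 in GSC[neonatal] to 0.10 in iPSC[GSCadult]#1. The range of line means of a single member had a median of 0.98 over the 13 lines, against 1.47 over all genes tested. Among the 10 pluripotent lines the members' median range was 0.51, against 0.81 for all genes. Arrays of the same line differed by a median of 0.10 over the members, most in GSC[adult] (0.28).

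**Figure D1:**
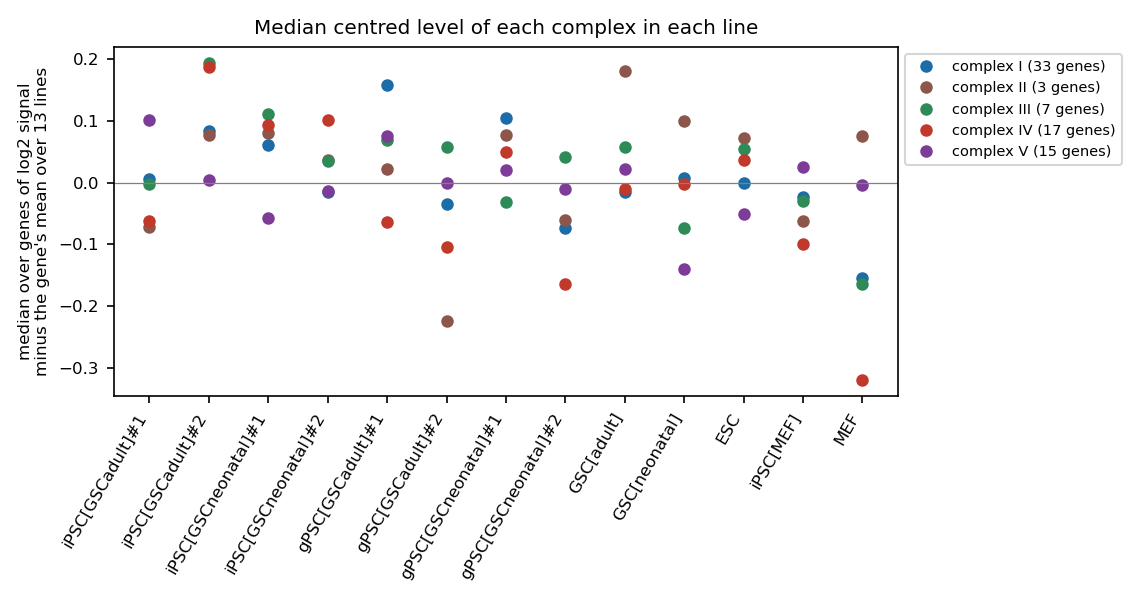
Points give, for each of the 13 lines (x axis), the median over the tested genes of complexes I to V of the log2 signal after each gene's mean over the lines was taken off (y axis). The medians of all complexes stay between -0.32 and 0.19, and the lowest is that of complex IV in MEF.

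Within every complex some members differed widely and others stayed nearly level. In complex I Ndufb2, an accessory subunit, had the widest range among members detected on every array, from 7.08 in GSC[neonatal] to 8.90 in gPSC[GSCneonatal]#1, and Ndufa3 the narrowest, from 9.96 in MEF to 10.38 in a pair of clones. In complex II the membrane anchor gene Sdhd ranged from 7.79 to 9.15 and Sdhb, the iron-sulfur subunit, from 8.71 to 9.37. In complex III Uqcrh, the hinge subunit, was highest in the GSC lines (12.51 and 12.40) and 11.27 to 11.70 elsewhere. The most level members of complexes III and IV were Uqcrb (10.62 to 11.30) and Cox6c (10.89 to 11.48). In complex V Atp5j2 was the most level member of all, from 12.09 in iPSC[GSCadult]#2 to 12.37 in GSC[adult]. Pearson r between members over the 13 line means had a median of 0.06 over 2775 pairs and 0.18 over the 136 pairs of complex IV. Over all pairs of tested genes the median was close to 0 (-0.004). Positive and negative values offset each other in such a median, and 54.5% of the member pairs were positive. Single pairs ran closely together or opposed, such as Cox4i1 with Ndufs8 (0.941) and with Cox7b (-0.955). These correlations are descriptions over lines that share parents and arrays.

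**Figure D2:**
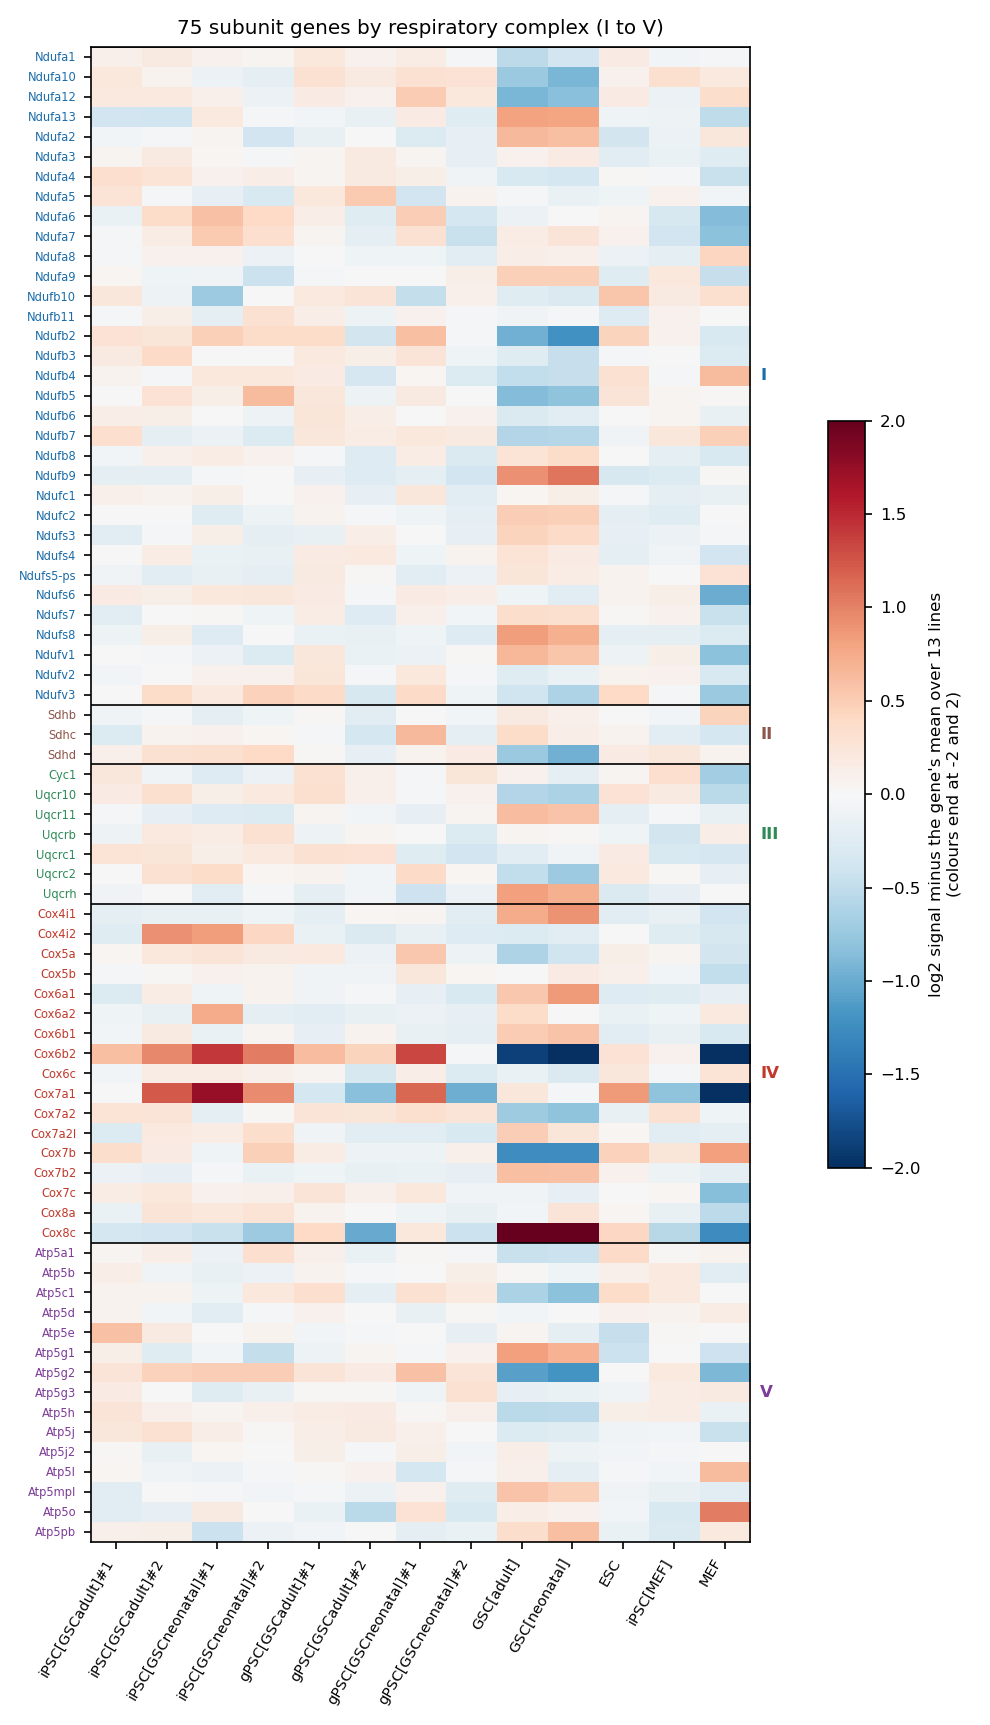
Colour gives the log2 signal of each of the 75 tested members (rows, by complex) in each of the 13 lines (columns) minus the gene's mean over the lines, with colours ending at -2 and 2. The GSC columns stand apart from the pluripotent lines most for Cox8c (2.10 and 2.05) and Cox6b2 (-1.86 and -2.05), and the MEF column for Cox7a1 (-3.16) and Cox6b2 (-2.82), both undetected there.

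Across the comparison of iPSC[GSC] with their GSC parents, 16 members rose and 18 fell among 75 tested. The limma fit called 22.4% of all genes tested higher and 25.6% lower. In this fit the members' shares (21.3% and 24%) lay near the background. The median difference was 0.04 over the members and -0.03 over all genes. Among the 68 members detected on every array 14 rose and 17 fell, or 45.6% called, against 53.8% of all genes detected on every array. With the line means as the units of the fit, 20 members rose and 17 fell (26.7% and 22.7%). That fit called 18.1% and 22.4% of all genes, so the members' share of rises lay above the background there. The excess was not tested. Calls shared by both fits were 14 and 16. Without GSC[neonatal] as a parent 12 members rose and 11 fell (all genes: 1669 and 1908). Without GSC[adult] 14 rose and 14 fell (1638 and 1850).

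The gPSC lines gave 15 members higher and 18 lower than GSC (20% and 24%), where 21.2% and 25.5% of all genes tested were called. Over line means 15 rose and 17 fell (20% and 22.7%, against 15.9% and 21.9% of all genes). The counts were 16 and 17 without gPSC[GSCneonatal]#2 (all genes: 2093 and 2527). Without gPSC[GSCadult]#2 17 rose and 18 fell (all genes: 2152 and 2481), and all 33 members called with the 4 clones kept their call and direction. Their largest move was that of Cox8c, by 0.35 to -1.93 (adjusted p = 4.2e-06 in limma). Without gPSC[GSCneonatal]#2 32 of the 33 kept both, all but Atp5mpl, and the largest move was that of Cox6b2, by 0.34 to 2.89. Under median centring 23 of 75 rose and 11 fell, whereas 1884 of all 9826 genes tested rose and 2762 fell. These comparisons share the 4 GSC arrays, so their values stand side by side and are not independent. By complex, iPSC[GSC] had 5 of 33 complex I members higher and 9 lower, and gPSC 6 and 8. Complex III had 2 higher and 2 lower of 7 in each comparison. Complex IV had 5 higher and 4 lower of 17 in iPSC[GSC], and 4 and 5 in gPSC. Complex II had 1 higher and 0 lower of 3 in iPSC[GSC] and none called in gPSC. Complex V had 3 higher and 3 lower of 15 in each.

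**Figure D3:**
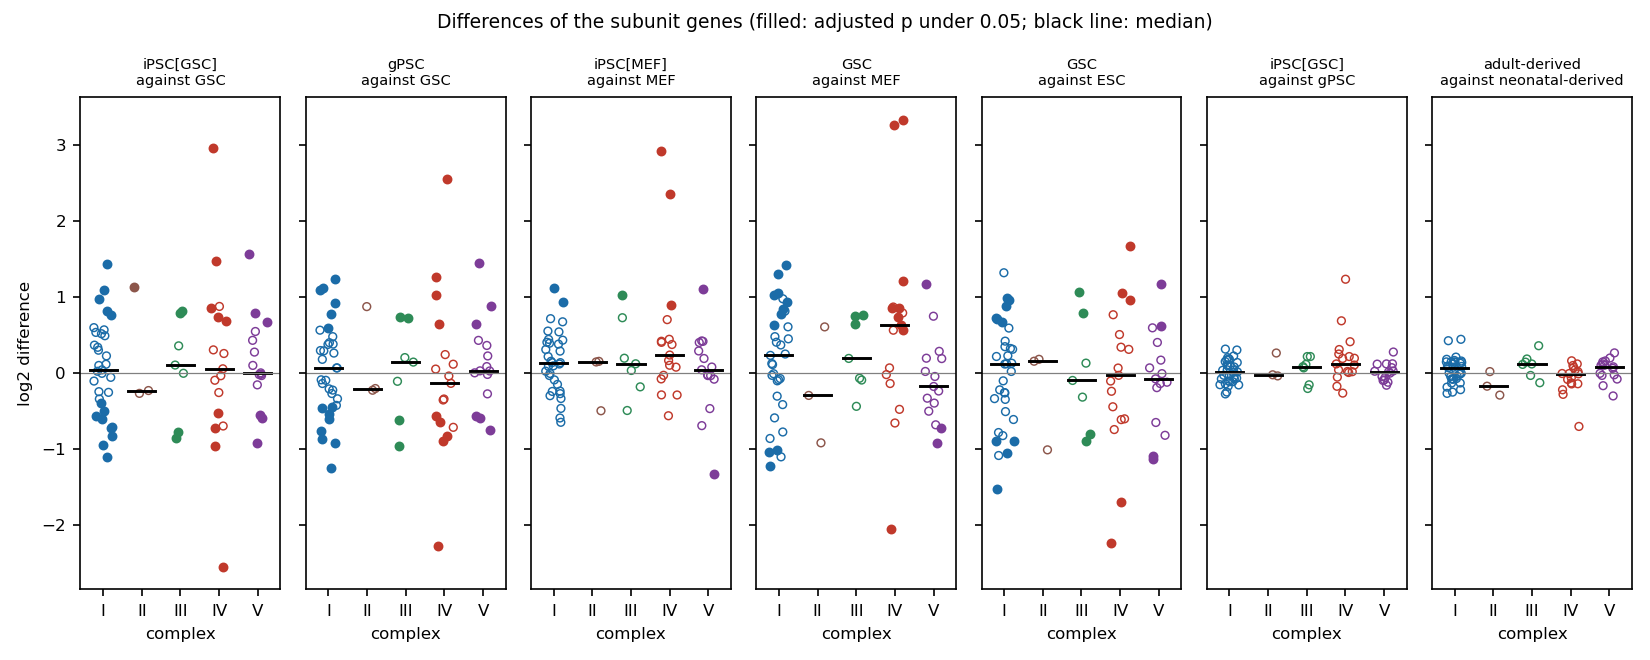
Each point is the log2 difference of a member (y axis) in the comparison named above the panel, by complex I to V (x axis). Filled points passed an adjusted p under 0.05 in limma and black lines are medians. Calls go both ways in most complexes of the comparisons with GSC, and no point is filled in the comparisons among clones.

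The widest differences were those of complex IV isoforms. Cox8c, the testis isoform of subunit 8, had line means of 4.72 to 5.09 in the 4 iPSC[GSC] clones, against 7.55 in GSC[adult] and 7.50 in GSC[neonatal]. In the gPSC clones it was 5.84, 4.44, 5.65 and 5.02, and none of these clones reached the GSC lines. It was detected on all 4 GSC arrays but on 6 of 8 iPSC[GSC] and 5 of 8 gPSC arrays, with neither array of iPSC[GSCneonatal]#2 or gPSC[GSCadult]#2 among them. The clones thus lie near the lowest detected signal, where the size of a fall is uncertain. As read, Cox8c fell by 2.55 ± 0.32 (SE) on the log2 scale in iPSC[GSC] (limma, adjusted p = 6.3e-07) and by 2.29 ± 0.32 in gPSC (adjusted p = 3.4e-06). In ESC it stood at 5.86, detected on both arrays. In iPSC[MEF] (4.89) and MEF (4.19) it was not detected on any array.

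Cox6b2, the testis isoform of subunit 6b, moved the other way. Its line means were 8.68, 9.03, 9.49 and 9.11 in iPSC[GSC] and 8.69, 8.52, 9.42 and 8.05 in gPSC, against 6.22 and 6.03 in the GSC lines. All 8 clones thus lay above both parents. The difference was 2.96 ± 0.31, or 7.77-fold, in iPSC[GSC] (adjusted p = 3.1e-08 in limma) and 2.55 ± 0.31 in gPSC (adjusted p = 3.3e-07). Cox6b1, the widely expressed isoform, fell by 0.53 ± 0.22 in iPSC[GSC] (adjusted p = 0.0497) and by 0.64 ± 0.22 in gPSC (adjusted p = 0.018). Another probe of Cox6b1, detected on all 26 arrays, read smaller differences of -0.24 and -0.40, so the size of its fall is uncertain.

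**Figure D4:**
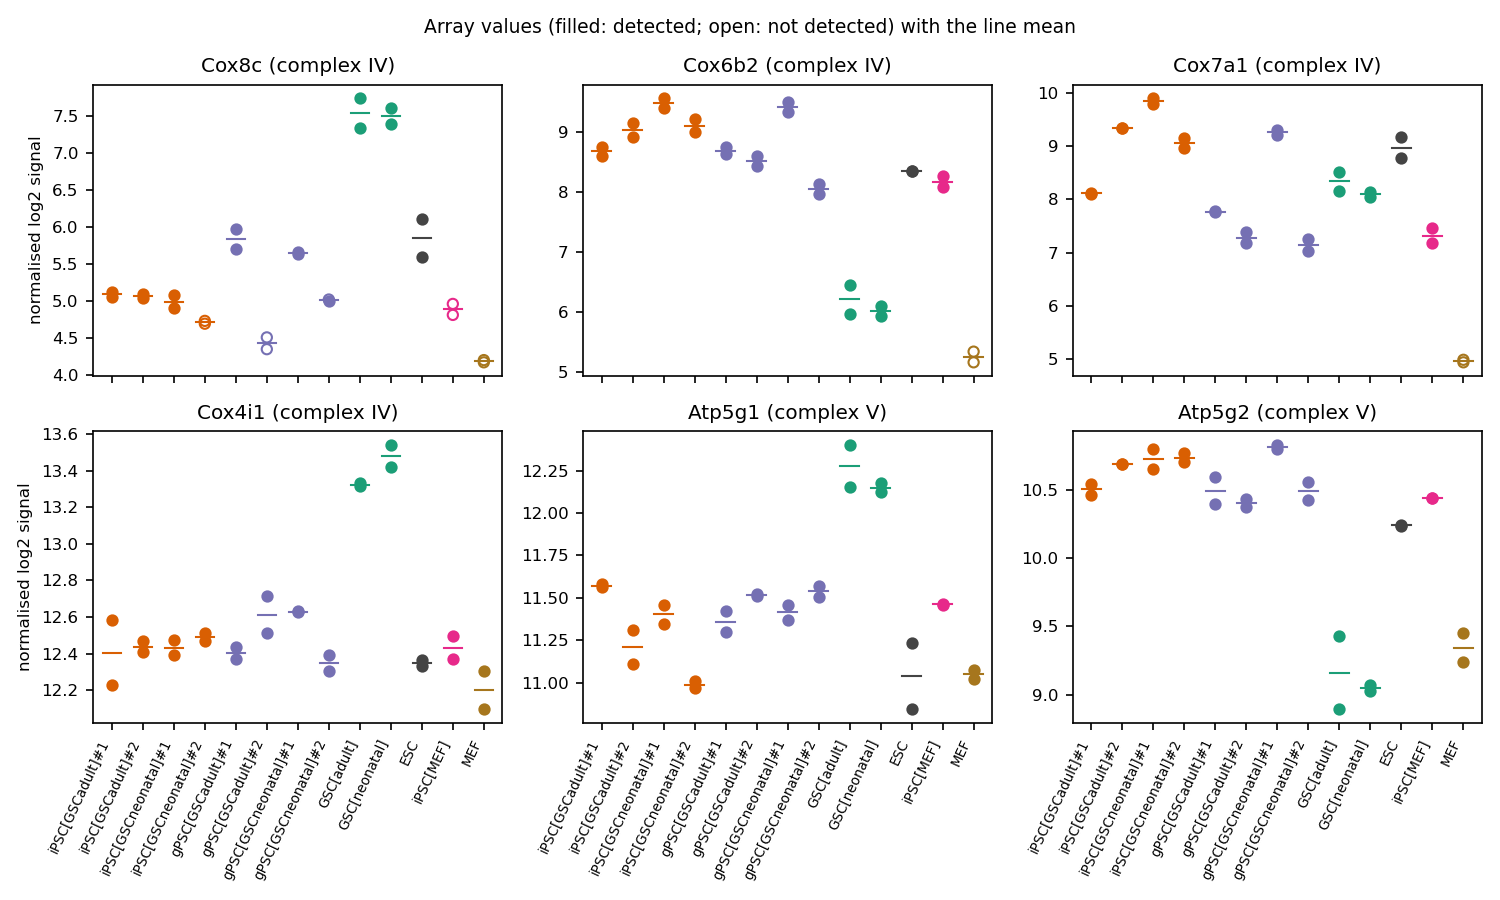
Each panel plots 1 gene's normalised log2 signal (y axis) on both arrays of each line (x axis), filled where the probe was detected and open where it was not, with a bar at the line mean. Cox8c, Cox4i1 and Atp5g1 are highest in the GSC lines, Cox6b2 and Atp5g2 are lower there than in every pluripotent line, and Cox7a1 varies most among the clones.

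Other isoforms that are restricted to certain tissues lay near or below the detection floor, except Cox7a1. Cox7a1, the heart and muscle isoform of subunit 7a, was 8.12, 9.34, 9.86 and 9.06 in iPSC[GSC] and 7.77, 7.28, 9.26 and 7.15 in gPSC, against 8.34 and 8.10 in the GSC lines. The clones overlapped with their parents and neither comparison was called. Cox4i2, the isoform of subunit 4 known from lung, was detected on 5 of 8 iPSC[GSC] arrays and on no other array. It passed the filter through these arrays alone, so its call against GSC (adjusted p = 0.018 in limma) is no support for a difference. That call, counted above, was lost over line means (adjusted p = 0.12), and no size is given. Cox7b2, a testis isoform, was detected on 2 of the 4 GSC arrays (line means 4.99 and 4.98) and on no other. Cox6a2, the heart and muscle isoform of subunit 6a, was detected on 3 arrays in all.

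Among the widely expressed complex IV subunits, Cox4i1, the main isoform of subunit 4, was 12.41, 12.44, 12.43 and 12.49 in iPSC[GSC], 12.40, 12.61, 12.63 and 12.35 in gPSC, and 13.32 and 13.48 in the GSC lines. It fell by 0.96 ± 0.19 in iPSC[GSC] (adjusted p = 0.00023 in limma) and by 0.90 ± 0.19 in gPSC (adjusted p = 0.00046). Cox6a1 fell by 0.73 ± 0.18 in iPSC[GSC] and by 0.83 ± 0.18 in gPSC. Cox7b, a small structural subunit, rose by 1.47 ± 0.33 in iPSC[GSC] and by 1.26 ± 0.33 in gPSC, with 6.65 to 7.23 in the clones and 5.51 in each GSC line.

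In complex I members moved in both directions. Ndufv1, the flavin-bearing subunit that oxidises NADH, was 11.45, 11.43, 11.33 and 11.17 in iPSC[GSC] and 11.68, 11.33, 11.34 and 11.48 in gPSC, against 12.12 and 12.01 in the GSC lines. All clones lay below both parents, by 0.72 ± 0.19 in the mean of iPSC[GSC] (adjusted p = 0.0028) and by 0.61 ± 0.19 in that of gPSC (adjusted p = 0.010). Without GSC[adult] the gPSC difference was -0.55 (adjusted p = 0.085). Ndufs8, an iron-sulfur subunit, fell by 0.84 ± 0.16 and 0.93 ± 0.16, and Ndufa13, an accessory subunit, by 0.95 ± 0.17 and 0.87 ± 0.17. Ndufb9 was 1.10 ± 0.38 and 1.25 ± 0.38 lower, a call that was lost in both comparisons without GSC[neonatal] (adjusted p = 0.108 and 0.066).

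Other complex I members rose in the same comparisons. Ndufb2 rose by 1.43 ± 0.32 in iPSC[GSC] and 1.23 ± 0.32 in gPSC, and Ndufb5 by 1.10 ± 0.30 and 0.92 ± 0.30. Ndufa12 rose by 0.98 ± 0.22 and 1.12 ± 0.22, and Ndufa10 by 0.82 ± 0.19 and 1.09 ± 0.19. The 4 genes encode accessory subunits. Ndufa4 carries a complex I name but its protein is known as a complex IV subunit, and neither comparison called it (11.96 to 12.36 in the clones, 11.73 and 11.68 in GSC). Ndufs5-ps, which the rule also takes in, is annotated as a pseudogene.

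In complex II Sdhd was 8.85, 9.05, 9.07 and 9.15 in iPSC[GSC], against 8.01 and 7.79 in the GSC lines. It rose by 1.13 ± 0.37 (adjusted p = 0.015), and without GSC[neonatal] the difference was 1.02 (adjusted p = 0.083). In gPSC Sdhd was 8.57 to 8.91, and its difference of 0.87 ± 0.37 was not called (adjusted p = 0.060). In complex III Uqcrc2, a core subunit, rose by 0.78 ± 0.17 in iPSC[GSC] (adjusted p = 0.00043 in limma) and by 0.72 ± 0.17 in gPSC (adjusted p = 0.0010). Its line means were 10.83, 11.13, 11.21 and 10.87 in iPSC[GSC] and 10.91, 10.79, 11.22 and 10.88 in gPSC, all above 10.35 and 10.11 in the GSC lines. Uqcr10 rose by 0.81 ± 0.20 and 0.73 ± 0.20. Uqcrh fell by 0.85 ± 0.22 and 0.96 ± 0.22, and Uqcr11 by 0.78 ± 0.18 and 0.63 ± 0.18.

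In complex V the genes of subunit c parted. Atp5g1, Atp5g2 and Atp5g3 are known to encode the same mature protein, the c subunit of the rotor ring, with different import sequences. Atp5g2 was 10.51, 10.70, 10.73 and 10.74 in iPSC[GSC] and 10.50, 10.40, 10.82 and 10.49 in gPSC, against 9.16 and 9.05 in the GSC lines, and rose by 1.56 ± 0.22 (adjusted p = 3.8e-06 in limma) and 1.45 ± 0.22 (adjusted p = 1.1e-05). Atp5g1 was 11.57, 11.21, 11.40 and 10.99 in iPSC[GSC] and 11.36, 11.52, 11.42 and 11.54 in gPSC, against 12.28 and 12.15 in the GSC lines. It fell by 0.92 ± 0.21 and 0.75 ± 0.21. Atp5g3 was not called, at 12.96 to 13.51 in the clones and 13.04 and 13.06 in GSC. Atp5c1, of the central stalk, rose by 0.79 ± 0.20 in iPSC[GSC] and 0.88 ± 0.20 in gPSC. Atp5mpl fell by 0.60 ± 0.23 and 0.59 ± 0.23, a call that was lost without GSC[neonatal] or GSC[adult] in both comparisons (adjusted p = 0.085 to 0.123) and in gPSC without gPSC[GSCneonatal]#2 (-0.51, adjusted p = 0.081).

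Set against ESC, the GSC lines gave 13 members higher and 10 lower, or 17.3% and 13.3% of those tested, where 17.2% and 16.2% of all genes tested were called. Cox6b2 was 6.22 and 6.03 in GSC and 8.36 in ESC, a fall of 2.24 ± 0.43 (adjusted p = 0.00032 in limma). Cox4i1 rose by 1.05 ± 0.27 (adjusted p = 0.0041), Atp5g1 by 1.17 ± 0.29 and Ndufs8 by 0.96 ± 0.22. Cox7b fell by 1.70 ± 0.47, Ndufb2 by 1.53 ± 0.45, Atp5g2 by 1.14 ± 0.32 and Atp5c1 by 1.10 ± 0.28. Cox8c was 1.66 ± 0.46 higher (adjusted p = 0.0068), a call that was lost over line means (adjusted p = 0.081). ESC are 1 line, and the spread of single lines was taken from the other cell types. Over line means 11 members were higher and 11 lower (14.7% each, against 12.5% and 10.1% of all genes). The members' median difference was -0.01 with all arrays, 0.14 without replicate 1 and -0.12 without replicate 2, where ESC is 1 array. Without GSC[neonatal] 10 members were higher and 6 lower (all genes: 1320 and 1278). Without GSC[adult] 9 were higher and 10 lower (1245 and 1242).

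The comparison of iPSC[MEF] with MEF called 7 members higher and 1 lower (9.33% and 1.33%), against 16.8% and 15% of all genes tested. Cox6b2 was 8.17 in iPSC[MEF], against 5.25 in MEF, where it was detected on no array, and was at least 7.14-fold higher (adjusted p = 9.6e-05 in limma). Cox7a1 was 7.32 in iPSC[MEF], against 4.96 in MEF, again undetected there, at least 3.95-fold higher (adjusted p = 0.0087, and 0.17 over line means). Ndufs6 rose by 1.12 ± 0.29, Atp5g2 by 1.10 ± 0.37, Cyc1, the cytochrome c1 gene, by 1.03 ± 0.30 and Ndufv1 by 0.94 ± 0.31. Atp5o, which joins the stator to the head of the ATP synthase, fell by 1.34 ± 0.34, with 7.68 in iPSC[MEF] and 9.02 in MEF. Each side is 1 line with 2 arrays. Over line means 6 members were higher and 1 lower (8% and 1.33%, against 8.80% and 9.77% of all genes tested). The members' share of rises thus lay near the background in that fit. Their median difference was 0.13 with all arrays, 0.09 without replicate 1 and 0.17 without replicate 2, where each side is 1 array.

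The direction of many members in comparisons with MEF depended on how the arrays were scaled. With each array centred on its median in place of quantile normalisation, the median of all genes shifted to -0.40 in iPSC[MEF] against MEF and to -0.34 in GSC against MEF, against 0.08 and 0.09 before. The share of higher calls among all calls moved to 23%, against 52.8%, in iPSC[MEF] against MEF and to 31.2%, against 55.2%, in the GSC comparison. Members then counted 2 higher and 36 lower of 75 in iPSC[MEF], where 991 of all 9826 genes tested were called higher and 3309 lower. In GSC 3 members were higher and 51 lower, beside 1661 and 3658 of all genes. Cox6b2 kept its direction and call, whereas Ndufv1 (-0.0686), Cox4i1 (-0.79) and Uqcrc2 (-0.79) turned negative in iPSC[MEF]. The higher background of the MEF arrays and the cell type cannot be told apart.

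Under quantile normalisation the GSC lines had 20 members higher and 6 lower than MEF (26.7% and 8%), where 25.4% and 20.6% of all genes tested were called. Complex IV had 8 higher and 1 lower of 17, complex I 8 and 3 of 33, complex III 3 and 0 of 7, and complex V 1 and 2 of 15. Cox8c (7.55 and 7.50 in GSC, 4.19 in MEF) was at least 4.56-fold higher and Cox7a1 (8.34 and 8.10 in GSC, 4.96 in MEF) at least 7.40-fold higher, both undetected in MEF. Ndufv1 rose by 1.42 ± 0.26, Ndufa13 by 1.30 ± 0.24, Cox4i1 by 1.20 ± 0.27 and Atp5g1 by 1.16 ± 0.29, of which Ndufa13, Cox4i1 and Atp5g1 turned negative and Ndufv1 was 0.06 under median centring. Cox7b fell by 2.06 ± 0.47, with 5.51 in each GSC line and 7.57 in MEF. Over line means 19 members were higher and 8 lower (25.3% and 10.7%, against 21.4% and 17.1% of all genes). The members' median difference was 0.19 with all arrays, 0.21 without replicate 1 and 0.17 without replicate 2, where MEF is 1 array.

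Whether reprogramming changed the members alike from both starting points was tested as the difference between (iPSC[GSC] minus GSC) and (iPSC[MEF] minus MEF). It was called positive for 3 members and negative for 10 (4% and 13.3%), against 15.4% and 18.4% of all genes tested. Ndufv1 differed by -1.65 ± 0.36, Ndufa13 by -1.35 ± 0.32, Atp5g1 by -1.33 ± 0.40 and Cox4i1 by -1.19 ± 0.37. Cox7b differed by 2.04 ± 0.63 and Ndufa12 by 1.44 ± 0.42. Cox8c was also called negative, but it was detected on no array of iPSC[MEF] or MEF, so no size is given for its difference. Cox6b2 rose on both paths, by 2.96 from GSC and at least 7.14-fold from MEF, where it was undetected, and Atp5g2 by 1.56 and 1.10. Under median centring the median of all genes moved to 0.28 and the members' calls to 35 positive and 1 negative. Of all 9826 genes tested 2713 were then positive and 1246 negative, or 68.5% of all calls positive, against 45.6% before. Cox4i1 (0.20) and Ndufa13 (0.0041) then changed sign. Over line means 3 members were positive and 6 negative (4% and 8%, against 10.4% and 12.0% of all genes). The members' median was 0.01 with all arrays, -0.08 without replicate 1 and -0.05 without replicate 2, where MEF and iPSC[MEF] are 1 array each.

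**Figure D5:**
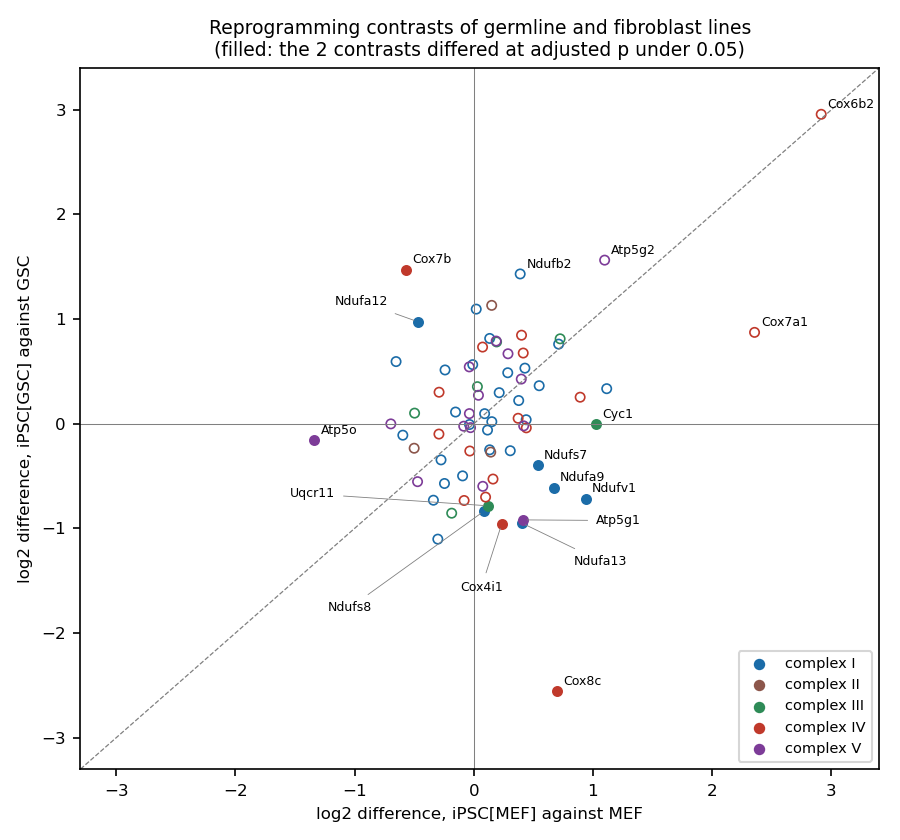
Each point is a tested member, with its log2 difference in iPSC[MEF] against MEF on the x axis and in iPSC[GSC] against GSC on the y axis, and filled where these differed at an adjusted p under 0.05 in limma. The dashed line marks equal differences. Cox6b2 lies at the upper right near it, Cox8c at -2.55 on the y axis, and Cox7b and Ndufa12 above the line. On the x axis Cox8c was detected in neither line, and Cox6b2 and Cox7a1 not in MEF, so their x positions are readings against background.

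Among the clones no member was called by method or by origin. For iPSC[GSC] against gPSC the limma fit on 8 clone means called 0.0% of all genes tested higher and 0.0% lower, with 2 members and 488 genes at an unadjusted p under 0.05. The median difference of the members was 0.03, with a range from -0.28 to 1.23. Cox7a1 averaged 9.09 ± 0.73 in iPSC[GSC] and 7.86 ± 0.97 in gPSC (SD, n = 4 clones each), a difference of 1.23 ± 0.53 with an adjusted p of 0.74 in limma. Without gPSC[GSCneonatal]#2 the difference, with each origin weighted equally, was 0.70. The clone gPSC[GSCneonatal]#1 (9.26) lay among the iPSC[GSC] clones and above the other gPSC clones (7.15 to 7.77). Cox6b2 differed by 0.41 and Ndufa10 by -0.28 ± 0.11 (adjusted p = 0.74). All 8 iPSC[GSC] arrays belong to the class of arrays with lower background, beside 1 array of each other line except MEF. On arrays of that class alone no member was called either.

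Between clones of adult and neonatal origin the counts were likewise 0 of 75, with 0.0% of all genes tested called in either direction, and 2 members and 439 genes at an unadjusted p under 0.05. Uqcrc1, a core subunit of complex III, averaged 11.01 ± 0.03 in clones of adult origin and 10.65 ± 0.28 in those of neonatal origin (SD, n = 4 each), a difference of 0.36 ± 0.10 that did not pass (adjusted p = 0.75 in limma). Ndufa5 differed by 0.44 ± 0.16 and Atp5pb by 0.26 ± 0.12, with the same adjusted p. Between the GSC lines themselves no member differed by over 0.5, and the lowest value of GSC[adult] minus GSC[neonatal] was -0.32, for Cox6a1.

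The genes whose line means ran most like a marker of the set were found over all genes tested, as Pearson r over 13 lines. They were Med24 (0.986), Slc35g1 (0.977) and Lrwd1 (0.971) for Ndufv1, Rnf181, Mib2 and Tfpi (0.970 to 0.962) for Uqcrc2, and Creld2, Muc1 and Aamp (0.973 to 0.969) for Cox4i1. Among members Ndufv1 ran most like Ndufa9 (0.902) and least like Cox7b (-0.843). Cox4i1 ran most like Ndufs8 (0.941) and least like Cox7b (-0.955), and Uqcrc2 most like Ndufb2 (0.939) and least like Uqcrh (-0.895). The lines share parents and arrays, so these values are descriptions.

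Genes that work beside the complexes were read from lists of the same pathway. Their counts are from the fit with the line as a random block, under quantile normalisation, and are not given over line means. Of 15 tested genes of the tricarboxylic acid cycle and pyruvate dehydrogenase, which supply the electrons, 6 rose and 1 fell in iPSC[GSC] against GSC (40% and 6.67%, against 22.4% and 25.6% of all genes tested). In gPSC 7 rose and 1 fell (46.7% and 6.67%, against 21.2% and 25.5%). Idh2, the mitochondrial NADP-dependent isocitrate dehydrogenase, averaged 10.51 ± 0.39 in iPSC[GSC] (n = 4) and 5.81 ± 0.46 in GSC (SD, n = 2), a difference of 4.70 ± 0.27. Idh3a, detected on 1 of the 4 GSC arrays, rose by 1.99 ± 0.28, Pdha1 by 1.85 ± 0.20 and Suclg2 by 1.33 ± 0.22. In GSC against MEF 1 rose and 6 fell (6.67% and 40%, against 25.4% and 20.6% of all genes tested), and Idh2 fell by 4.77 ± 0.38. Under median centring the calls of all genes there moved to 1661 higher and 3658 lower, so these shares hold for quantile normalisation only.

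Of 16 tested electron carriers and inner- or outer-membrane transporters, 5 rose and 2 fell in iPSC[GSC] as well as in gPSC, or 31.2% and 12.5% beside the shares of all genes given above. Vdac1, the main channel of the outer membrane, rose by 3.27 ± 0.16 in iPSC[GSC] against GSC, Etfb, of the electron transfer flavoprotein, by 2.22 ± 0.20, Slc25a5, an ADP/ATP carrier, by 1.82 ± 0.15 and Vdac2 by 1.59 ± 0.15. Of 39 tested assembly factors 9 rose and 8 fell in iPSC[GSC] (23.1% and 20.5%) and 11 and 6 in gPSC (28.2% and 15.4%), among them Sdhaf3 (1.34 ± 0.21 and 1.06 ± 0.21) and Ttc19 (-1.05 ± 0.20 and -1.24 ± 0.20). Of 17 tested regulators of mitochondrial biogenesis and mitochondrial DNA expression 3 rose and 5 fell in each of these comparisons (17.6% and 29.4%). In iPSC[MEF] against MEF 8 rose and 0 fell (47.1% and 0%, against 16.8% and 15% of all genes tested), including Tfb1m, a methyltransferase of mitochondrial ribosomal RNA (2.29 ± 0.31). Under median centring the calls of all genes in that comparison moved to 991 higher and 3309 lower, and whether this list kept its direction is not given. Ppargc1a and Yy1 were not detected in any class. Of 9 germ cell isoforms of energy metabolism, of which Cox6b2, Cox7b2 and Cox8c are members, only those and Ldhc were tested, and Cyct, Slc25a31, Pdha2, Pgk2 and Gapdhs were not detected.

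Markers were checked against the labels. Of 9 pluripotency markers 9 rose in iPSC[GSC] and 8 in gPSC against GSC, and their summed linear level was 22325 to 36600 in these clones, against 1888 to 2651 in GSC. Spermatogonial stem cell markers (9 with a probe) were all detected in GSC, and in each clone class 7 fell and 1 rose against GSC. Their sum was 678 to 2160 in the clones, 5385 to 5884 in GSC and 3896 in MEF. In MEF Ddx4, Dazl, Gfra1, Nanos2 and Bcl6b were not detected, so that sum rests on the other markers. Fibroblast markers summed to 1098 at most in iPSC[GSC], 596 to 819 in GSC and 9290 in MEF, beside the higher sums of 2 gPSC clones given above. Of 10 testis somatic markers Amh, Star, Cyp17a1, Hsd3b1, Insl3 and Myh11 were detected in no class. The list's sum was 1659 at most in the other lines and 16419 in MEF, where only Sox9, Wt1 and Acta2 were detected. The part of such cells in the members' values was not tested. The share of probes detected ran from 38.9% to 47% over the arrays. Bulk RNA cannot separate fewer cells of a type from less RNA per cell, and a probe may read near-identical copies of a gene.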

How the data were processed

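RNA of 13 lines, 2 arrays each, was read on Illumina MouseRef-8 bead arrays. The deposited table holds the authors' intensity values, not normalised, with detection p-values per probe, per the file headers. A deposited matrix of log2 values, quantile normalised by the authors as its columns show, was an alternative, and its background treatment is not given in the sources used here. BeadStudio 3.2, RMA and lumi are named per the submitters' processing notes. Of 25697 probes 23962 were named by Entrez ID, 9 by accession and 7 by the file's symbol, and 1719 were left unnamed.

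Signals were corrected with neqc (offset 16), quantile normalised and set to log2, and the probe with the highest mean stood for a gene. limma 3.58.1 (R 4.3.3, statmod 1.5.0) was fitted to 9826 genes. The line was a random block (correlation 0.81) over 26 arrays, and clone comparisons used 8 clone means. Adjusted p-values are Benjamini-Hochberg over all genes tested, with a threshold of 0.05. Tested on simulated data, the line-block fit made too many false calls while the fit to line means held its error rate, so counts of both are given for the members. Counts of the other lists and of the markers are from the line-block fit alone. The labels call both arrays of a line biological replicates without naming separate cultures, so the spread may be partly technical.

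Genes named were, per complex, the called members with the largest differences between lines that did not overlap, tissue-restricted isoforms, those of widest and narrowest range, and up to 4 of each other list. Cox6b1, Atp5g3, Cox6a1, Ndufa4 and Ndufa9 were added after their values were seen. The members, lists and tests were chosen with earlier results of these data known. "At least" folds set the detected group's mean against, per array, the higher of the lowest detected signal and the probe's own. Alternatives were normalisation, the deposited matrix, filters, probe choice, the replicate block, line means, left-out lines and replicates, and, added after seeing the data, background classes. The number of arrays limits the precision.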

Additional observations from a re-analysis of the deposited data

Results flagged for a closer look

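Among 76 groups of 4 clones examined (38 genes), 2 values stood apart from the other 3 clones, where chance flags about 1 in 20 groups. Cox6a2 was 5.22 in iPSC[GSCneonatal]#1, detected on both arrays, against 4.29 to 4.38 in the other iPSC[GSC] clones. Ndufa10 was 10.50 in gPSC[GSCadult]#2, below the other gPSC clones.

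By the limma interaction contrast, the change on reprogramming differed between germline and fibroblast starting cells for 10 of the members named by rule. Called members of this contrast were what the rule mainly picks, so that count says nothing about the set. Over the set 13 of 75 tested members were called (17.3%), against 33.8% of all genes tested. The difference, (iPSC[GSC] minus GSC) minus (iPSC[MEF] minus MEF), was -1.65 for Ndufv1, -1.19 for Cox4i1 and -1.35 for Ndufa13. For Cox8c it read -3.25, but Cox8c was detected on no array of iPSC[MEF] or MEF, so part of that value is a difference between background readings. It was -1.03 for Cyc1, -0.90 for Uqcr11 and -1.33 for Atp5g1, and 1.44 for Ndufa12, 2.04 for Cox7b and 1.18 for Atp5o. Cyc1, Uqcr11 and Atp5o did not pass over line means (adjusted p = 0.063, 0.054 and 0.088). Each contrast holds 1 fibroblast line, and iPSC[MEF] is the line that hardly differed from gPSC[GSCneonatal]#2.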

How the results depend on the processing

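Of 1301 values of named called genes over all alternatives, 1166 were still called, 126 were not and 9 turned their sign, all under median centring, as did Cox4i1 (-0.79) and Uqcrc2 (-0.79) in iPSC[MEF] against MEF, which had not been called. The 9 were -0.0686 for Ndufv1 in iPSC[MEF] against MEF, -0.25 for Atp5g1, -0.43 for Cox4i1, -0.32 for Ndufa13, -0.67 for Uqcr11 and -0.73 for Uqcrh in GSC against MEF, and 0.20 for Cox4i1, 0.0041 for Ndufa13 and 0.32 for Uqcr11 in the difference of the contrasts. Median centring gave 23 members higher and 11 lower in gPSC against GSC (all genes: 1884 and 2762 of 9826). In iPSC[MEF] against MEF it gave 2 and 36 (991 and 3309), and in GSC against MEF 3 and 51 (1661 and 3658). In GSC against ESC 8 members were higher and 12 lower (1858 and 1459). In the difference of the contrasts 35 were positive and 1 negative (2713 and 1246). The cause was not tested. With no filter, which tests 80 members and 16590 genes, 25 members were higher in iPSC[GSC] and 24 in gPSC against GSC. Of all genes 2695 and 2520 were. In iPSC[MEF] against MEF 13 members were higher and 4 lower (all genes: 2302 and 2187). Members lower were 15 in GSC against MEF and 17 in GSC against ESC (2718 and 2123). The difference gave 6 and 17 (2170 and 2570). Line means gave 3 members positive and 6 negative in the difference (all genes: 1024 and 1183 of 9826).

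Members higher and lower are given here with those of all 9826 genes tested in brackets. Leaving out 1 line or 1 replicate number gave 12 to 22 and 11 to 18 in iPSC[GSC] against GSC (1638 to 2086 and 1850 to 2347). It gave 12 to 18 and 12 to 20 in gPSC against GSC (1517 to 2266 and 1833 to 2669). Both clone comparisons stayed at 0 (0). Leaving out 1 line gave 14 to 15 and 4 to 5 in GSC against MEF (2084 to 2169 and 1737 to 1763). In GSC against ESC it gave 9 to 10 and 6 to 10 (1245 to 1320 and 1242 to 1278). In the difference it gave 2 to 3 and 8 to 9 (1311 to 1511 and 1536 to 1774). With 1 replicate left out MEF, iPSC[MEF] and ESC are 1 array each, so no counts are given there. With the replicate block, which pairs arrays by number, 16 and 18 were called in iPSC[GSC] against GSC (2198 and 2498). The counts were 16 and 18 in gPSC against GSC (2068 and 2493) and 7 and 1 in iPSC[MEF] against MEF (1615 and 1477). They were 17 and 6 in GSC against MEF (2487 and 2014) and 13 and 10 in GSC against ESC (1686 and 1580). The difference had 3 and 9 (1509 and 1803). Both clone comparisons had 0 (7 and 0 by method, 4 and 5 by origin). The replicate numbers partly follow the background classes. With the class as a term 16 and 17 were called in iPSC[GSC] against GSC (2175 and 2478). In gPSC against GSC 16 and 19 were called (2081 and 2488).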
